A study of Gallus gallus with 10 samples.

Results

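T lymphocytes and natural killer cells in abdominal fat were followed through 38 genes, listed as genes of these cells and matched by symbol to the probe sets of the chicken array. A probe set is a group of short oligonucleotides designed to 1 transcript. Of the 38 genes, 27 had at least 1 probe set carrying that symbol alone, and they held 44 of the 38439 probe sets tested, which carried the symbols of 13009 genes in all. The other 11 (CD6, LAT, SH2D1A, SLA2, TNFRSF4, CD200R1, IL2RB, GZMM, TCF7, RUNX3 and GFI1) matched no probe set and were not analysed here. The tissue came from 10 male Arbor Acres chickens killed at 49 days (7 weeks), 5 of a fat line and 5 of a lean line. Both lines were bred from 1 grandsire line by divergent selection on abdominal fat percentage and plasma very low density lipoprotein, and were kept on the same diet. The birds taken were those with the highest and the lowest abdominal fat percentage, so the comparison is of extreme birds. RNA of each bird was hybridized to its own Affymetrix Chicken Genome Array, and the birds of a line carry the numbers 1 to 5 of the labels.

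A T cell recognizes antigen through a receptor whose short tails carry no enzyme. The CD3 chains and CD247 pass the signal on. CD4 or CD8 on the same cell binds the MHC molecule and brings the kinase LCK, and ZAP70 then docks on the phosphorylated chains. Natural killer cells share CD247, several kinases and the granzymes but do not rearrange a receptor. In mammals, T cells and natural killer cells live between the fat cells of visceral fat, and their numbers and types change with obesity.

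The values are MAS5 signals, linear hybridization intensities that the authors had scaled to the same trimmed mean on each array. The signals came without detection calls, so a low signal does not show that a transcript was there. A signal also depends on the probes, so the order of signals between genes is not an order of RNA amounts. The median signal of an array was 185.8 to 276.2, the highest in fat line 4, whose log2 signals correlated with those of the other birds at 0.807 to 0.828. Recorded hybridization times, split at gaps of more than 1 hour, put the arrays in 4 groups, called wash runs here. A stop was recorded for lean line 4, and the arrays were scanned on 3 days. Run 1 held fat line 5 and lean line 4, run 2 held lean lines 1 and 2, run 3 held fat lines 1, 2 and 3 with lean line 5, and run 4 held fat line 4 with lean line 3. Scanner 1 read fat line 5 and lean lines 1, 2 and 4, on scan days 1 and 2. Scanner 2 read the other birds on scan day 3. The 3' to 5' signal ratio of the actin control was 2.28 to 3.09 on scanner 1 and 1.55 to 2.05 on scanner 2. Fits on scan day 3 alone, and so on scanner 2 alone, and with scan day as a block are given below. Beyond these fits the part of scanner in the line differences was not tested, and that of this ratio was not tested at all. Whole fat was measured, so fewer cells of a type and less RNA per cell cannot be told apart.

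The CD3 chains, CD247 and CD8A, each on its brightest probe set, were above the array median in every bird. None of the 27 genes passed the test of a line difference. CD3D had a mean signal of 895 ± 309 (SD, n = 10), CD247 of 632 ± 154, CD3E of 605 ± 177, the cytotoxic granule protease gene GZMA of 502 ± 300.4 and CD8A of 497 ± 134. On their brightest probe sets these 5, with FYN, CD44, IL2RG and IKZF1, were the 9 genes above the array median in all 10 birds. LCK, RHOH, CTLA4 and IL21R were above it in no bird on these probe sets, and their mean signals were under 100. The second RHOH probe set read 240.4 in lean line 3, where the array median was 234.2. The second CD8A probe set was dimmer than the first, with a mean signal of 107 and a range of 31.7 to 197. It exceeded the array median only in fat line 3, where it read 190.5 and the median was 189.6. None of the 44 probe sets of the 27 genes passed limma at a Benjamini-Hochberg adjusted p under 0.05, and 0% of the 38439 did.

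With that count of 0 among 38439 stand the unadjusted results. At an unadjusted limma p under 0.05 there were 2835 probe sets (7.38%), and 1 of the 44 probe sets of the T and natural killer cell genes was among them, below the share of all. Significance analysis of microarrays at the delta of the study's methods also called 0 probe sets. It was run on all 10 birds without a filter on detection. The study's own screen left out 1 fat line bird and the probe sets called present in no array, and it did report differentially expressed genes. That screen was not repeated here, so the count of 0 does not bear on its result. The signals of the 5 fat line birds and the 5 lean line birds did not overlap for 1.39% of all probe sets and for 0 of these 44. Of the 27 genes, each read from the 1 of its probe sets with the highest log2 signal on average, 10 were higher in the fat line and 17 lower, against 44.3% of all probe sets higher and 55.7% lower. The median log2 fold (fat line minus lean line) was -0.17 over the 27 genes and -0.05 over all probe sets. The smallest adjusted p among the 27 genes was 0.694 for IL2RA.

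**Figure D1:**
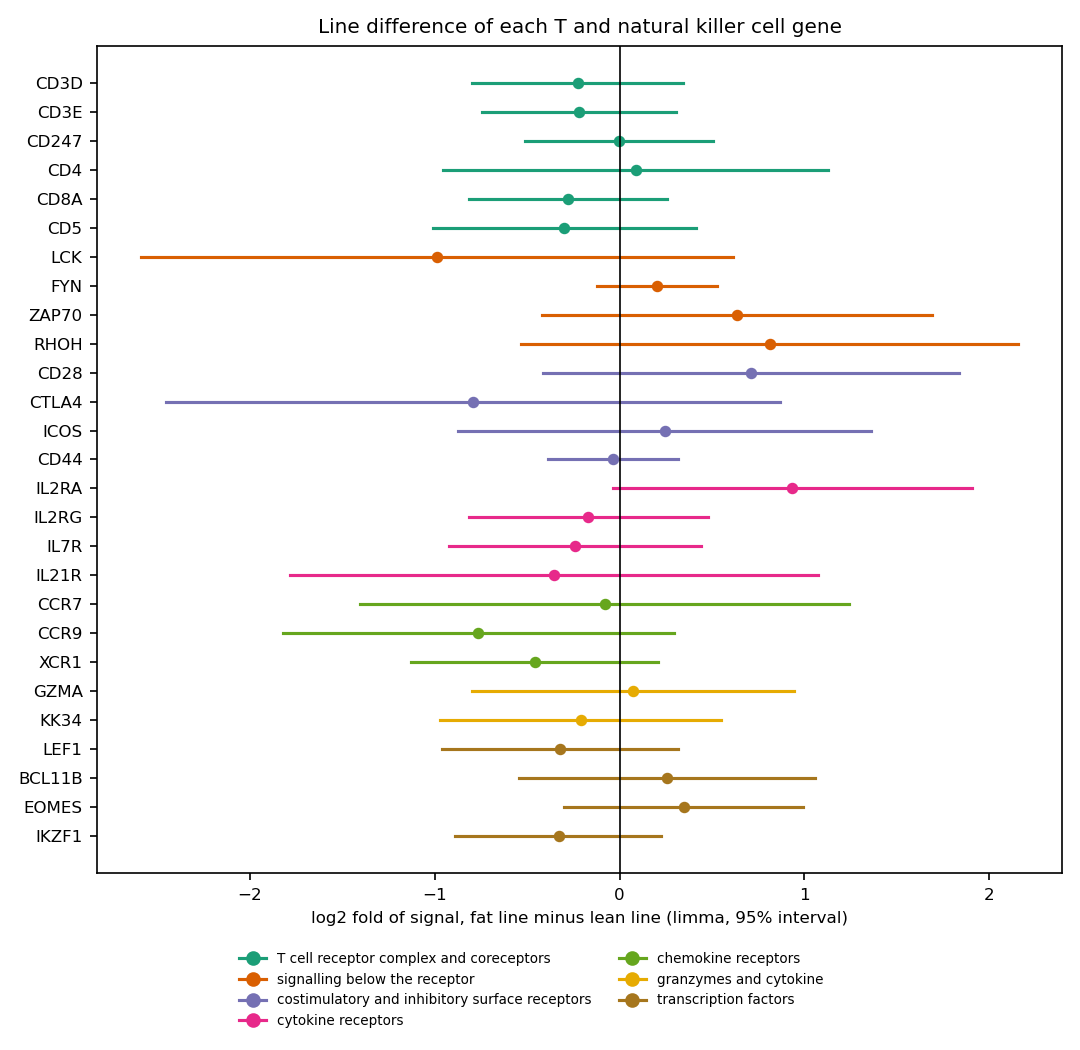
Log2 fold of the signal, fat line minus lean line, for each of the 27 genes (x axis), as limma estimates (points) with 95% intervals (lines), coloured by role. Every interval crosses 0, and the widest belong to genes of low signal such as CTLA4 and LCK.

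The receptor and coreceptor genes varied less between birds than the signalling genes, with a median SD of log2 signal of 0.43 against 0.94 (n = 10 birds). The groups also differed in signal. The dim LCK and RHOH had SDs of 1.34 and 0.98, the bright FYN 0.225, and CD4, the dimmest of the receptor group, 0.76. Role and signal level were not separated by a test. CD3D, a chain of the CD3 complex that carries the receptor's signal, had signals of 672, 544, 1101, 890.2 and 838 in fat line birds 1 to 5 and of 1524, 605, 1074, 603 and 1100.4 in lean line birds 1 to 5. Lean line 1 was highest and fat line 2 lowest, and the lines overlapped over most of their range. The log2 fold of CD3D was -0.23 (SE 0.27, 95% interval -0.80 to 0.35, limma adjusted p = 0.901), and the two-sided exact permutation test over all labellings of 5 birds against 5, whose smallest possible p is 0.0079, gave p = 0.508. With 1 bird left out it ran from -0.38 without lean line 2 to -0.04 without lean line 1. CD3E, the partner chain without which the receptor does not reach the surface, read 552, 379, 876, 522 and 483 in the fat line and 905, 535, 590.0, 466 and 745 in the lean line, each in bird order. Lean line 1 and fat line 3 were the highest birds and fat line 2 again the lowest, with a log2 fold of -0.22 (SE 0.25, adjusted p = 0.893) that ran from -0.39 without fat line 3 to -0.09 without fat line 2. CD247, the zeta chain shared by the T cell receptor and natural killer cell receptors, read 434, 408, 712, 843 and 816 in the fat line and 659, 588, 738, 473 and 647 in the lean line. Fat line birds 1 and 2 lay below every lean line bird and fat line birds 4 and 5 above every one. The log2 fold of CD247 was -0.003 (SE 0.24), and its sign turned to 0.04 after quantile normalization and 0.09 with arrays scaled to the same median.

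The coreceptors and CD5 did not pass the test either, and the CD4 signal was below the array median in 7 birds. For CD4, the coreceptor of helper T cells, which binds MHC class II, the fat line signals were 167, 192, 118, 69.5 and 221 and the lean line signals 313, 65.6, 148, 79.0 and 179. Lean line 1 stood at the top, and lean lines 2 and 4 and fat line 4 lay at the bottom, all under 100. The log2 fold was 0.09 (SE 0.49, exact permutation p = 0.873). CD8A, the alpha chain of the coreceptor of cytotoxic T cells, which binds MHC class I, read 354, 286, 612, 562 and 449 in the fat line and 517, 715, 626, 446 and 400.1 in the lean line. Fat line birds 1 and 2 were below all lean line birds, and the other 3 fell inside the lean line range. The log2 fold was -0.28 (SE 0.25, exact permutation p = 0.302). CD5, which dampens receptor signalling and is also carried by some B cells, had signals of 171, 211, 122, 339.5 and 139.6 in the fat line and 234, 244, 291, 180.4 and 196 in the lean line, with fat line 4 highest and fat line 3 lowest (-0.30, SE 0.34, exact permutation p = 0.333). Over these 6 receptor and coreceptor genes the median log2 fold was -0.22, with 1 gene higher in the fat line and 5 lower.

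**Figure D2:**
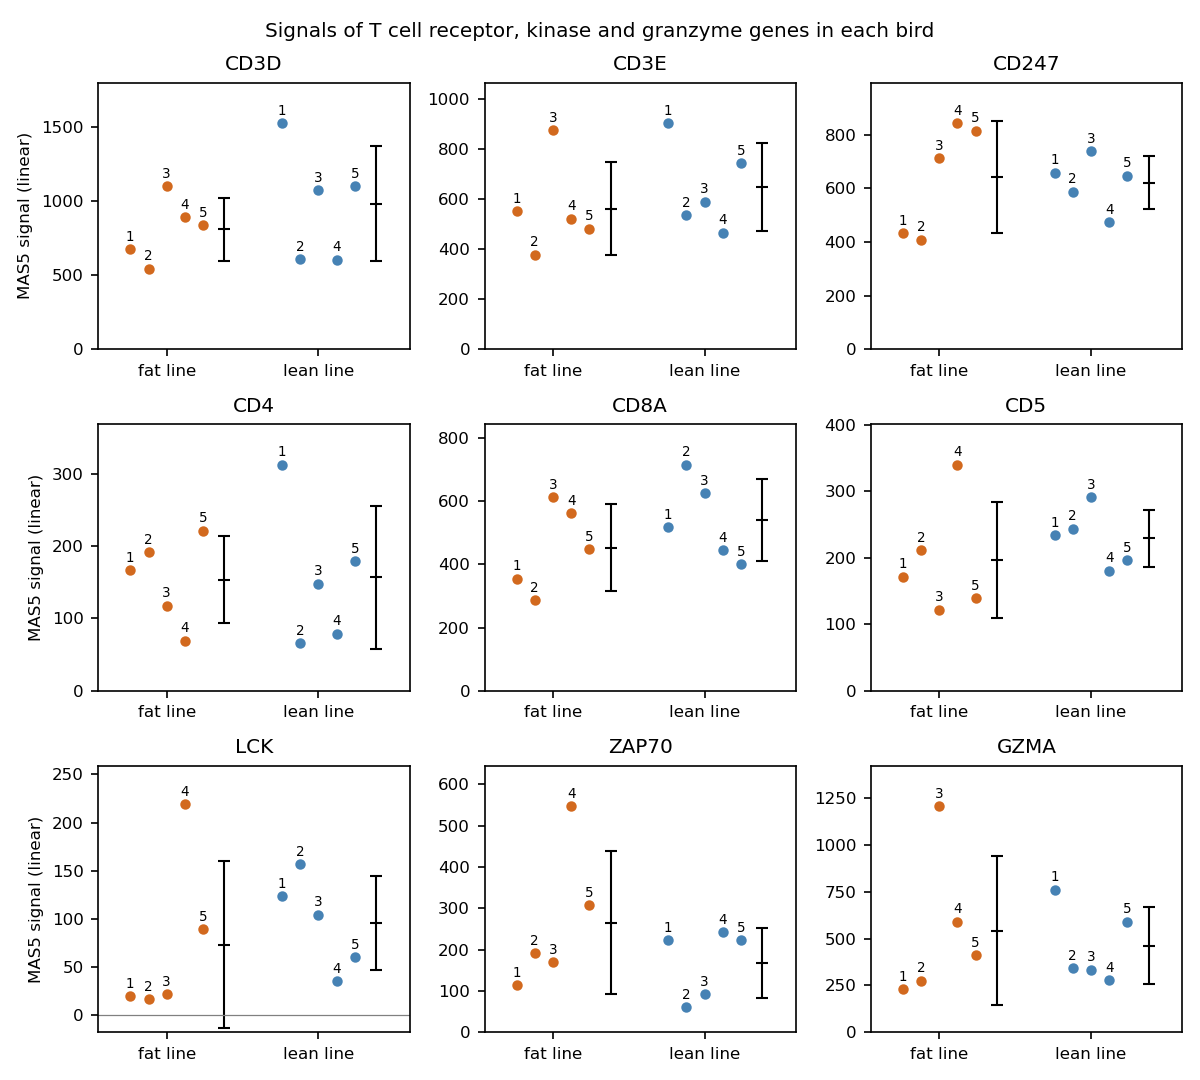
Linear MAS5 signal (y axis, starting at or below 0) of 9 genes in each fat line (orange) and lean line (blue) bird, numbered as in the labels, with the mean and SD of each line (n = 5) in black. The lines overlap in every panel, and the LCK panel shows fat line birds 1, 2 and 3 at the bottom with fat line 4 at the top.

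The genes just below the receptor had a median log2 fold of 0.42, with 3 of 4 higher in the fat line and none past the test. LCK, the kinase bound to CD4 and CD8 that phosphorylates the CD3 chains, read 19.5, 16.5, 21.9, 219 and 89.1 in the fat line and 123, 157, 104, 35.0 and 60.1 in the lean line. Fat line birds 1, 2 and 3 were the lowest of all 10 and fat line 4 was the highest. The log2 fold of LCK was -0.99 (SE 0.75, adjusted p = 0.818, exact permutation p = 0.254). It was -1.58 (adjusted p = 0.398) without fat line 4 and -0.65 without fat line 2. Blocking on scan day gave -0.48, blocking on wash run -0.01, and setting signals under 100 to 100 gave 0.03. Within runs 1, 3 and 4 it was 1.35, -1.65 and 1.07. ZAP70, the kinase that docks on phosphorylated CD3 and CD247, gave 114, 191, 169, 546 and 308 in the fat line and 223, 61.2, 92.3, 242 and 223 in the lean line. Fat line 4 was again the highest bird, lean line 2 the lowest, and the other birds of the lines were mixed (0.64, SE 0.49, exact permutation p = 0.294). Without fat line 4 the ZAP70 log2 fold was 0.32.

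FYN, a kinase related to LCK that many cells besides lymphocytes express, was the brightest of the 27 genes. Its signals were 2222, 2394, 1712, 1726 and 1695 in the fat line and 1859, 1632, 1379.6, 1845 and 1702 in the lean line, a spread of only 1.74 times between the highest and lowest bird. Fat line birds 1 and 2 were above all others and lean line 3 was below, with a log2 fold of 0.20 (SE 0.15, adjusted p = 0.814). The other FYN probe set had the opposite sign, -0.28 (SE 0.17). RHOH, a GTPase of blood cells that helps bring ZAP70 to the receptor, read 94.0, 28.1, 85.1, 48.3 and 155 in the fat line and 15.5, 45.5, 94.1, 36.2 and 41.9 in the lean line. Fat line 5 was highest and lean line 1 lowest (0.81, SE 0.63, exact permutation p = 0.222). Its second probe set was the 1 of 44 with an unadjusted p under 0.05 (0.0391) and pointed the other way. It read 9.9, 27.7, 22.6, 51.5 and 39.2 in the fat line and 100.3, 105, 240.4, 51.1 and 22.6 in the lean line, with lean line 3 far above the rest and lean line 5 level with fat line 3. Its log2 fold was -1.57 (SE 0.70, adjusted p = 0.663, exact permutation p = 0.0714), and the 2 probe sets of this gene correlated at -0.19 over the 10 birds.

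The costimulatory receptors CD28, CTLA4 and ICOS lie next to each other on chromosome 7 in the RefSeq annotation of the chicken genome (GRCg7b). CD28, whose signal T cells need beside the receptor's to become active, read 210.3, 126, 161, 169 and 253 in the fat line and 139, 325, 111, 29.9 and 104 in the lean line. Lean line 2 was highest and lean line 4 lowest, and every fat line bird was above lean line birds 3, 4 and 5. The log2 fold was 0.71 (SE 0.53, exact permutation p = 0.278) and was 0.24 without lean line 4. It was 1.10 without lean line 2 (adjusted p = 0.754), 1.28 with scan day as a block (adjusted p = 0.754) and 1.33 with wash run as a block (adjusted p = 0.603), all 3 at an unadjusted p under 0.05. CTLA4, the inhibitory receptor that competes with CD28 for its ligands, was the dimmest of the 27 genes, at 7.4 to 49.9 in the fat line and 6.0 to 96.8 in the lean line (-0.79, SE 0.78). ICOS, which is induced on activated T cells, ranged from 56.9 to 309.6 in the fat line and from 94.1 to 393 in the lean line, with fat line 4 lowest and lean line 3 highest (0.24, SE 0.53). CD44 is a hyaluronan receptor of activated and memory T cells that is also found on many other cells. Its brightest probe set varied little, at 735 to 973 in the fat line and 784 to 1136 in the lean line (-0.03, SE 0.17). The other CD44 probe sets ranged over 147 to 676, 166 to 458 and 310 to 524 in the 10 birds. Over the 10 birds CD28 and CTLA4 correlated at -0.22 (permutation p = 0.562, rho 0.05 with permutation p = 0.892), CD28 and ICOS at 0.178 (permutation p = 0.645, rho -0.0424 with permutation p = 0.918) and CTLA4 and ICOS at -0.40 (permutation p = 0.249, rho -0.50 with permutation p = 0.144).

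Among the cytokine receptors, IL2RA came closest to a line difference. IL2RA, the alpha chain that gives activated and regulatory T cells their high affinity for interleukin 2, read 172, 226, 156, 109.6 and 242 in the fat line and 39.5, 187, 78.5, 91.9 and 118 in the lean line. Every fat line bird was above the lean line median, but lean line 2 lay within the fat line range and lean line 5 just above fat line 4. The means were 181 ± 53.8 and 103 ± 54.8 (SD, n = 5 each), the log2 fold was 0.94 (SE 0.46, 95% interval -0.04 to 1.91), and neither the exact permutation test (p = 0.0635) nor limma (adjusted p = 0.694) passed. Within each wash run that held both lines the fat line was higher, by 1.40 in run 1, 0.62 in run 3 and 0.48 in run 4. IL2RG, the common gamma chain of the receptors for interleukins 2, 7 and 21 among others, was bright, at 495 to 862 in the fat line and 502 to 1881 in the lean line. Lean line 3 stood far above the other 9 birds (-0.17, SE 0.30). IL7R, through which naive T cells receive survival signals, was at 126 to 316 in the fat line and 209 to 388 in the lean line (-0.24, SE 0.32), and IL21R, the receptor chain for a cytokine of helper T cells, at 18.9 to 121 and 28.3 to 139 (-0.36, SE 0.67).

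The log2 folds of the 3 chemokine receptors, each on its brightest probe set, were all below 0, with a median of -0.46 and none past the test. Their second probe sets were at -0.02 (SE 0.61) for CCR9, 0.32 (SE 0.75) for XCR1 and 0.52 (SE 0.78) for CCR7. CCR9, which guides T cells to the gut through CCL25, read 93.0, 46.2, 176, 367 and 93.5 in the fat line and 209, 177, 294, 258 and 130.3 in the lean line. Fat line birds 1, 2 and 5 were below all lean line birds, whereas fat line 4 was the highest of the 10. The log2 fold was -0.76 (SE 0.50, adjusted p = 0.777, exact permutation p = 0.206), or -1.16 (adjusted p = 0.368) without fat line 4 and -0.42 without fat line 2. Within runs it was -1.46, -0.52 and 0.32 in runs 1, 3 and 4. XCR1, the receptor of lymphotactin, which in mammals marks a type of dendritic cell, had signals of 228, 133, 153, 172 and 287 in the fat line and 248, 173, 346, 280.2 and 272 in the lean line. Lean line 3 was highest, and fat line birds 2 and 3 were lowest (-0.46, SE 0.31, exact permutation p = 0.111). CCR7, which directs naive T cells and dendritic cells into lymphoid tissue, in birds chiefly the spleen and mucosal lymphoid tissue, was spread widely, at 52.9 to 185 in the fat line and 28.5 to 283 in the lean line (-0.08, SE 0.62).

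GZMA, encoding granzyme A, a protease that cytotoxic T cells and natural killer cells release into their targets, read 229.5, 275, 1204, 591 and 410.1 in the fat line and 760.2, 343, 335, 279 and 590.0 in the lean line. The 2 brightest birds were fat line 3 and lean line 1, which were also the 2 brightest for CD3E, and fat line 1 was the dimmest. The log2 fold of GZMA was 0.07 (SE 0.41, 95% interval -0.80 to 0.94, exact permutation p = 0.889), and it ran from -0.28 without fat line 3 to 0.32 without fat line 1. KK34, a chicken cytokine gene related to interleukin 5 and described from gamma delta T cells, ranged over 143 to 436 in the fat line and 195 to 335 in the lean line. Fat line 5 was its highest bird and fat line 2 its lowest (-0.21, SE 0.36).

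The transcription factors had moderate signals on their brightest probe sets and mixed signs. IKZF1, encoding Ikaros, which all lymphocytes need and other blood cells also express, read 329, 277, 289.6, 451 and 390.3 in the fat line and 279.7, 512, 551, 569.7 and 325 in the lean line. Lean line birds 2, 3 and 4 were the highest of the 10, while lean lines 1 and 5 fell among the fat line birds (-0.33, SE 0.26, exact permutation p = 0.222). LEF1, a partner of beta-catenin in naive T cells and in many developing tissues, was at 183 to 408 in the fat line and 214 to 541 in the lean line (-0.32, SE 0.30). Its other probe sets had mean signals of 80.7 and 76.2, and its 3 probe sets correlated at -0.15 to 0.24 over the birds. The study lists the probe set at 80.7 among genes that it calls not expressed in this tissue. BCL11B, which fixes the T cell lineage in the thymus, was at 177 to 339 and 90.4 to 369 (0.26, SE 0.38). EOMES, a T-box factor of natural killer cells and memory cytotoxic T cells, was at 277 to 437 and 133 to 394 (0.35, SE 0.30), its lowest value being that of lean line 2.

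Different probe sets of a gene did not always give the same picture. Of the 11 genes with several probe sets, 8 (CD8A, FYN, RHOH, IL7R, CCR7, XCR1, LEF1 and BCL11B) had log2 folds of both signs among them, and CD44, CCR9 and IKZF1 did not. The 4 CD44 probe sets, at -0.63 to -0.03, correlated with each other at 0.28 to 0.69 over the birds, whereas the 4 of IL7R, at -0.24 to 0.64, correlated at -0.45 to 0.61. A mean signal under 100 was found for 13 of the 44. Over all 44 the median log2 fold was -0.13, with 16 higher and 28 lower.

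Fat line 4 moved several of these values. Without that bird 5 of the 44 probe sets had an unadjusted p under 0.05, against 11.3% of all probe sets, namely those of LCK, IL2RA (1.10) and CCR9, the second of RHOH (-1.82) and 1 of CD44 (-0.79). Their adjusted p-values were 0.368 to 0.418. With quantile normalization as well, IL2RA (1.32), CCR9 (-0.95) and the second RHOH probe set (-1.49) remained under 0.05 unadjusted, against 8.91% of all. Over the 38439 probe sets the log2 signal of fat line 4 lay 0.35 above the mean of the 10 birds on average, and its part in these values was not tested further.

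Between birds, the T cell genes varied together only in part. Over the 351 pairs of the 27 genes the median Pearson r of log2 signals over the 10 birds was 0.10, against 0.00 over all pairs of genes with a symbol. An r above 0.7 was seen for 15 pairs (4.27%, against 2.29% of all gene pairs) and one below -0.7 for 6 (1.71%, against 1.94%). At a permutation p under 0.05 there were 37 pairs, a count that was not made over all gene pairs, and 0 after Benjamini-Hochberg adjustment over the 351. Birds of 1 wash run were processed close in time, so these are descriptions of the 10 arrays. Within the 15 pairs of receptor and coreceptor genes the median r was 0.29.

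CD3D and CD3E were the pair with the highest r. Pearson's r was 0.864 (permutation p = 0.00121, adjusted p = 0.263, n = 10) and Spearman's rho 0.903 (permutation p = 0.00078, adjusted p = 0.263). It was 0.721 without the 2 birds farthest from the median of CD3D, 0.855 within lines, 0.880 without fat line 4 and 0.853 among the birds of scan day 3. The 2 genes are neighbours on chromosome 24 in the GRCg7b annotation, with 0 protein-coding genes between them. GZMA followed both chains, at 0.761 with CD3D (permutation p = 0.0107, rho 0.806 with permutation p = 0.00687) and 0.798 with CD3E (permutation p = 0.00561, rho 0.612 with permutation p = 0.0657). The second of these rested in part on the extreme birds, since it was 0.514 without the 2 farthest. Other members ran against the chains. BCL11B was at -0.704 with CD3E (permutation p = 0.0199, rho -0.394 with permutation p = 0.264). With CD3D it was at -0.624 (permutation p = 0.0471, rho -0.418 with permutation p = 0.232). IL2RA was at -0.67 with CD3D (permutation p = 0.0312, rho -0.527 with permutation p = 0.123). These 3 values were -0.251, -0.319 and -0.25 without the 2 farthest birds. CD8A and CD3E were at 0.430 (permutation p = 0.213, rho 0.370 with permutation p = 0.294), and CD4 and CD8A were at -0.472 (permutation p = 0.164, rho -0.527 with permutation p = 0.122).

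**Figure D3:**
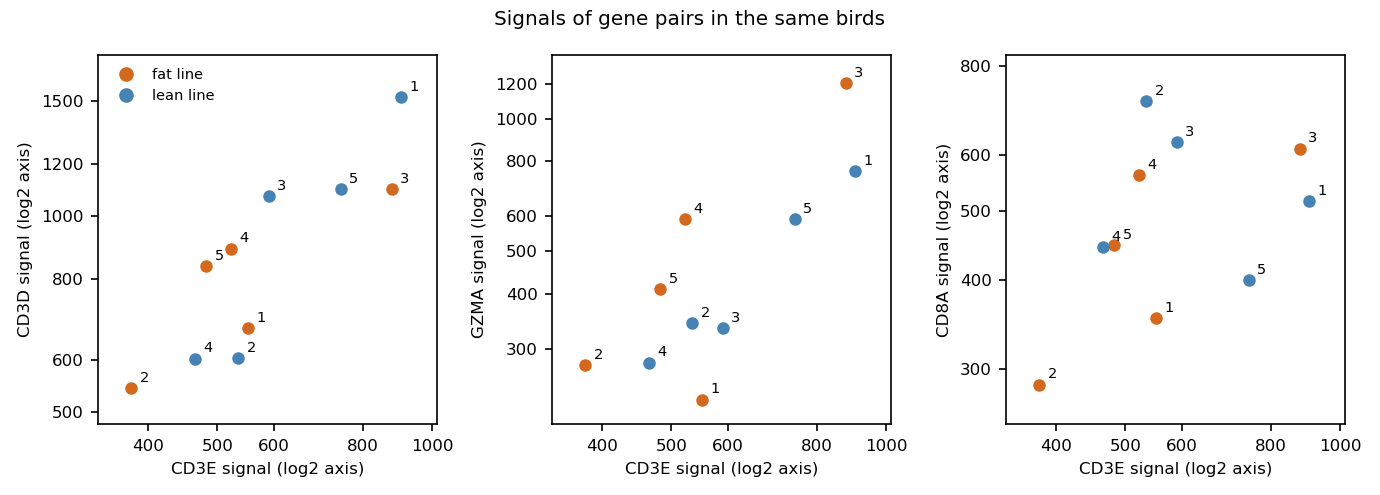
Signals of CD3D, GZMA and CD8A (y axes) against CD3E (x axes) in the same birds on log2 axes, with fat line birds in orange and lean line birds in blue, numbered as in the labels. CD3D and GZMA climb with CD3E (r = 0.864 and 0.798, n = 10), and CD8A is scattered (r = 0.430).

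Other pairs with a high r joined genes of different roles. LCK and KK34 reached 0.848 (permutation p = 0.00374, rho 0.745 with permutation p = 0.0177), 0.765 without the 2 farthest birds. CD247 and CD44 reached 0.820 (permutation p = 0.00313, rho 0.879 with permutation p = 0.0015), 0.741 without the 2 farthest. Of the negative pairs, CD4 and LEF1 were at -0.855 (permutation p = 0.0022, rho -0.818 with permutation p = 0.00615) and CD8A and FYN at -0.818 (permutation p = 0.00358, rho -0.733 with permutation p = 0.0205). None passed adjustment over the 351 pairs.

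The mean log2 deviation of CD3D, CD3E and CD247 from their means over the 10 birds, called the CD3 level here, gives each bird's standing. CD247 was at 0.658 with CD3D (permutation p = 0.0423, rho 0.588 with permutation p = 0.0795) and at 0.420 with CD3E (permutation p = 0.229, rho 0.273 with permutation p = 0.447). The CD3 level was -0.31, -0.62, 0.39, 0.12 and 0.04 in fat line birds 1 to 5 and 0.53, -0.23, 0.21, -0.40 and 0.27 in lean line birds 1 to 5. Lean line 1 and fat line 3 were thus highest and fat line 2 lowest, with both lines on both sides of 0. Fat line 2 was the lowest bird for 10 of the 27 genes, against 12.3% of all probe sets for that bird. Fat line 4 was the highest bird for 6 of the 27, against 27.8% of all probe sets, and lean line 3 for 7, against 12.5%.

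**Figure D4:**
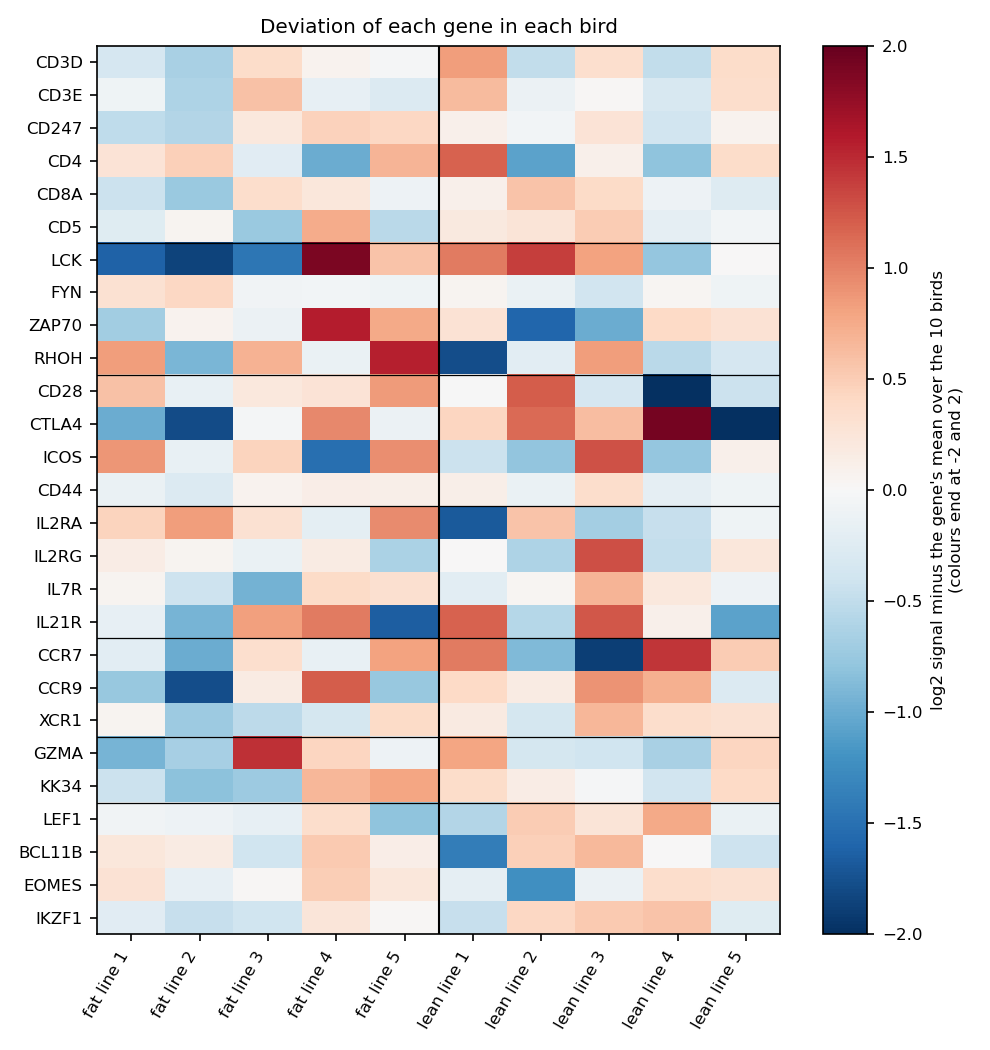
Log2 signal of each of the 27 genes (rows, grouped by role) in each bird (columns, fat line left of the black line) minus the gene's mean over the 10 birds, red above and blue below that mean, with colours ending at -2 and 2. Fat line 2 is the lowest bird for 10 of the 27 genes, and the receptor genes at the top are paler than LCK, CTLA4 and CCR7, which have lower signals.

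T cell pathway genes outside the 38 were compared in the same fit. Of 69 such genes 46 were measured, with a median log2 fold of -0.06, 17 of them higher in fat line birds and 29 lower. None passed an adjusted p under 0.05, and at an unadjusted p under 0.05 there was 1 higher (S1PR1) and there were 2 lower (TNFSF10 and ARHGAP15), against 3.38% and 3.99% of all probe sets. S1PR1, the receptor by which T cells leave lymphoid organs and which endothelial cells also carry, read 1445, 478, 2289.5, 2306 and 2274 in the fat line and 489, 443, 592, 845 and 505 in the lean line. Fat line 2 lay among the lean line birds and the other 4 above them all (1.45, SE 0.37, adjusted p = 0.321, exact permutation p = 0.0397). TARP, a transcript of the gamma chain locus of the T cell receptor, was bright, at 1409, 876, 1340.4, 1748 and 1801 in the fat line and 1361, 1297, 1799.5, 712 and 1961 in the lean line. The lines overlapped over nearly the whole range, and fat line 2 and lean line 4 were its lowest birds, as they were for the CD3 level (0.05, SE 0.26).

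Natural killer cell markers, 11 of 20 measured and 2 of them (GZMA and EOMES) members of the 27, had a median log2 fold of -0.06, with 4 higher and 7 lower in the fat line. At an unadjusted p under 0.05 there was 1 lower, against 3.99% of all probe sets, and 0 higher, against 3.38%. It was TNFSF10 (-0.65, SE 0.23, adjusted p = 0.543), which is also among the T cell pathway genes above. XCL1, the lymphotactin that binds XCR1, was at 345 to 916 in the fat line and 382 to 922 in the lean line (-0.06, SE 0.29). XCL1 and the brightest probe set of XCR1 were both highest in lean line 3 and lowest in fat line 2. The second XCR1 probe set was highest in fat line 5 (232) and lowest in lean line 1 (9.2). XCL1 was almost as high in fat line 5 (916) as in lean line 3 (922).

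Markers of other cells stood beside these genes, and their levels differed between single birds. In several lists most genes had a log2 fold of the same sign, but no list was tested. Of all probe sets, 55.7% were lower in the fat line and 44.3% higher. Of the skeletal muscle genes, 9 of 9 were lower in the fat line (median log2 fold -2.31). So were 10 of 11 liver genes (-1.6), 6 of 7 smooth muscle genes (-1.10) and 26 of 27 cell cycle genes (-0.47). Lower too were 14 of 16 intestine genes (-0.56) and 6 of 9 red cell genes (-0.87). Higher were 10 of 12 fat cell genes (0.32) and 9 of 12 endothelial genes (0.19), S1PR1 among the latter. No gene of these lists passed an adjusted p under 0.05. Of 25 B cell markers 16 were measured, with a median log2 fold of -0.10 and 9 lower in the fat line, and of 33 macrophage and myeloid markers 21, with a median of -0.21 and 16 lower. The macrophage level, computed as for the CD3 level, was 0.95 in lean line 3 and -0.43 to 0.26 in the other birds, and the cell cycle level was 1.04 in lean line 3 and -0.71 to 0.11 in the others. That bird was also the highest for IL2RG, ICOS and XCR1. Interferon response genes were highest in lean line 5 (2.28) and fat line 5 (1.49) and lay at -0.96 to 0.36 in the rest. The CD3 level of these 2 birds was 0.27 and 0.04. Over the 10 birds the interferon level and the CD3 level correlated at r = 0.47 (rho 0.59), which was not tested. Skeletal muscle genes, which are not expected of fat cells, were at 2.47 in fat line 2, 3.50 in lean line 3 and 4.63 in lean line 5, and at -2.32 to -0.67 in the others. Liver genes were at 3.15 in lean line 1 and 2.29 in lean line 5 and at -1.61 to 0.21 in the others, and lean line 1, the highest bird for the CD3 level, was also the highest for intestine genes (1.35) and red cell genes (0.96). The part of these other cells and tissues in the signals of the 27 genes was not tested.

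**Figure D5:**
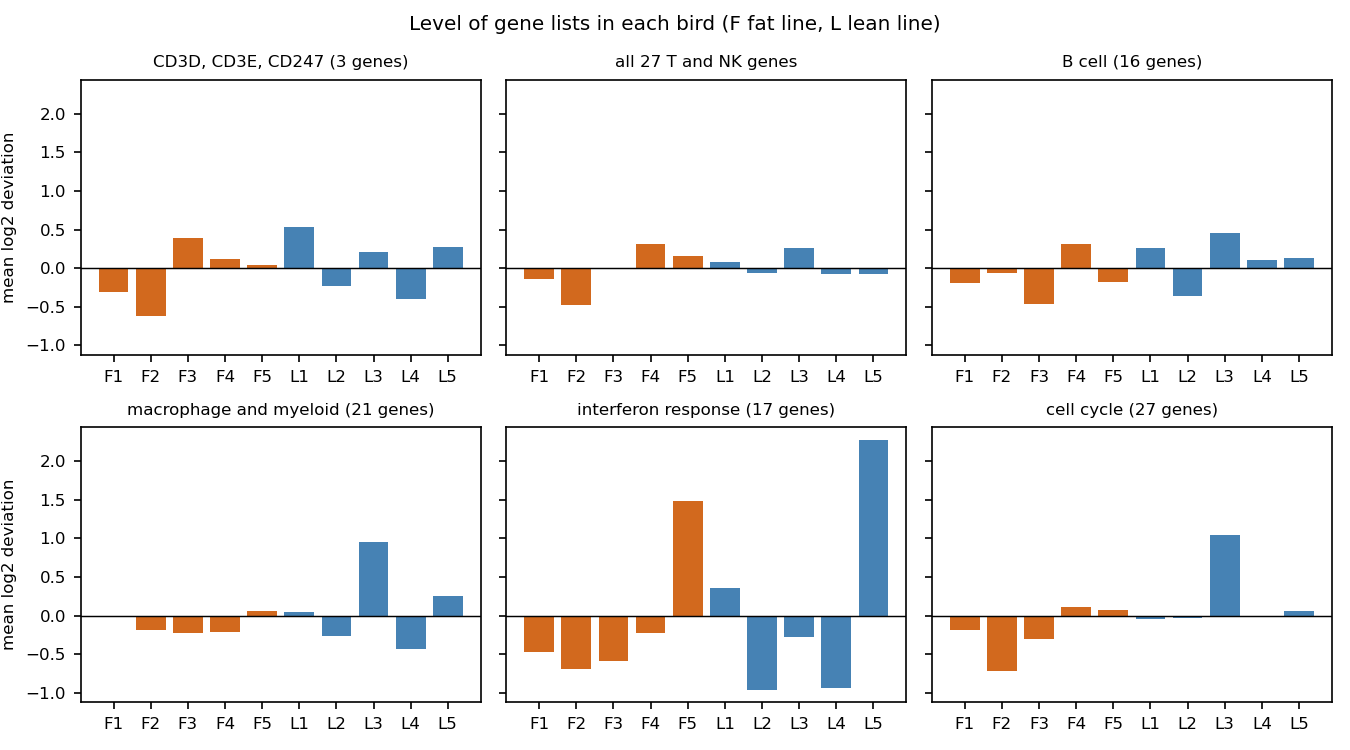
Mean log2 deviation from the mean over the 10 birds (y axis) of 6 gene lists in each fat line (F, orange) and lean line (L, blue) bird. The macrophage and cell cycle bars of lean line 3 reach 0.95 and 1.04, the interferon bars of lean line 5 and fat line 5 reach 2.28 and 1.49, and the CD3 bars stay between -0.62 and 0.53.

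Wash runs gave the line difference in different directions. Within run 1, 17 of the 27 genes were higher in the fat line bird (median 0.11), within run 3, 9 of 27 (median -0.20), and within run 4, 14 of 27 (median 0.10). Runs 1 and 4 held 1 bird of each line, and the share over all probe sets was not counted within runs. The mean log2 deviation over all probe sets was -0.03 in fat line 5 and 0.07 in lean line 4 of run 1. In run 3 it was -0.19, -0.18 and -0.16 in fat line birds 1, 2 and 3 and -0.09 in lean line 5. In run 4 it was 0.35 in fat line 4 and 0.11 in lean line 3. Run 2 held only lean line birds and gave no value. For CD3D the fat line minus the lean line was 0.47 in run 1, -0.58 in run 3 and -0.27 in run 4. With wash run as a block the median over the 27 genes was -0.01, with 13 higher and 14 lower. Under quantile normalization it was -0.09 with 12 higher, and with arrays scaled to the same median -0.07 with 13 higher. Of all probe sets at an unadjusted p under 0.05, 45.9% were higher in the fat line as deposited, 56.5% after quantile normalization and 62.0% with arrays scaled to the same median.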

How the data were processed

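The authors made the intensity values with MAS5, per the labels (the study's methods name Microarray Suite 4.0), and deposited linear signals scaled to a trimmed mean near 500, without detection calls. The deposited settings of each array gave the scan day, the scanner and a hybridization time, from which the wash runs were inferred. Of 38535 probe sets, 96 controls were left out. Gene symbols came from the array's annotation table, and the RefSeq table served only to find neighbouring genes.

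Lines were compared on log2 signals in R 4.3.3 with limma 3.58.1 (lmFit, then eBayes with a trend on intensity). Tests were two-sided, p-values were Benjamini-Hochberg adjusted over all 38439 probe sets, and the threshold was 0.05. Single genes were tested by exact permutation over 252 labellings, and correlations by 100000 permutations (seed 193). Significance analysis of microarrays used a delta of 0.8 and 100 relabellings. Both were tested on simulated data. Python 3.11.15, numpy 2.4.6, pandas 2.3.3, scipy 1.17.1 and matplotlib 3.10.9 made the tables and figures. The number of arrays limits the precision. The labels call the replicates biological and name no sires, so how far the birds are related is not known. The p-values set the line difference against the spread between these birds. Each direction of selection has a single line, so they do not extend to other lines.

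The 38 genes and all lists were chosen with earlier results of these data known, so no list was tested. Every gene with a probe set is named. Values by bird are given for receptor and coreceptor genes, LCK, ZAP70, GZMA and the 4 genes of smallest p in each direction. Of other lists up to 3 genes of smallest p are named, and TARP and XCL1 were added after their values were seen. The study names the 1 fat line bird that it left out for deviating from the others, but the labels do not carry that name. The study also prints signals of some genes by bird name, and these were not matched to the deposited values here. All 10 were kept, so the main fit includes the bird that the study left out, and each was left out in turn. Fat line 4 had the lowest mean correlation with the other arrays (0.819). Whether it is that bird was not checked against the printed signals. Same-numbered birds deviated together at r = -0.136 to 0.0631, and none correlated best with its own number, so the numbers do not pair birds. The other settings tried were quantile normalization, equal array medians, 50 added, a floor of 100, the brighter probe sets, no intensity trend, scan day 3 alone, and blocks for replicate number, scan day and wash run.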

Additional observations from a re-analysis of the deposited data

How the results depend on the processing

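The median log2 fold of the 27 genes stayed below 0 under every alternative that kept all 27. It ran from -0.21 on scan day 3 alone to -0.01 with a wash run block. The median over all probe sets was -0.04 and 0.0 in these 2 settings. With 1 bird left out the median of the 27 genes ran from -0.21 without fat line 4 to -0.03 without fat line 2. Over all probe sets it was -0.11 and -0.03 without these birds. The member median was -0.22 over the 16 genes left among the brighter probe sets and -0.07 over the 26 left with the floor of 100. Probe sets called by limma numbered 0 under every setting with all birds, 0 to 2 with 1 bird left out (1 when fat line 2 was absent, 2 for fat line 4 and 2 for lean line 5) and 2 without fat line 4 after quantile normalization, none of them of these genes. The member probe sets at an unadjusted p under 0.05 were 1 of 44 as deposited, against 7.38% of all probe sets. They numbered 2 after quantile normalization (7.27% of all), 2 with equal medians (6.59%) and 2 when no intensity trend was used (6.74%). Among the brighter probe sets they were 0 of 20, against 8.62% of all brighter ones. After quantile normalization of the arrays other than fat line 4 they numbered 3 (8.91%). With 1 bird left out they numbered 0 to 5. Omitting fat line 4 gave 5 (11.3% of all). Omitting fat line 5 gave 2 (8.23%), as did lean line 2 (6.52%) and lean line 5 (8.22%). Lean line 4 gave 1 (6.34%), and each of the others gave 0 (5.49% to 7.14%). With the replicate block the member probe sets numbered 0 (6.74%) and the calls 0, and the numbers do not pair the birds.

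Of 169 values of the 16 genes given by bird, 161 kept their sign, and none passed an adjusted p of 0.05 (smallest 0.43, IL2RA without fat line 4 after quantile normalization). None of the 160 values with 1 bird left out passed either (smallest 0.368, CCR9 without fat line 4). CD247 turned to 0.04 (quantile), 0.09 (equal medians), 0.00 (50 added), 0.01 (scan day block) and 0.12 (wash run block). LCK turned to 0.03 with the floor of 100, and CD4 to -0.35 and RHOH to -0.13 on scan day 3 alone. With 1 bird left out CD247 ran from -0.12 to 0.14, CD4 from -0.17 to 0.39 and GZMA from -0.28 to 0.32. The cause of these turns was not tested. Signals near background and 5 birds a line limit what could be seen of the dim genes.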

Other observations

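Of the 16 B cell markers measured, 7 had a log2 fold above 0 and 9 below, and none passed the test. At an unadjusted p under 0.05 there were 2 lower in the fat line (CD79B and JCHAIN), against 3.99% of all probe sets, and 0 higher, against 3.38%. The 3 of smallest p are given. CD79B, a signalling chain of the B cell receptor, had a mean of 194 ± 89.5 in the fat line and 401 ± 135 in the lean line (SD, n = 5 each), and the limma adjusted p of the difference (-1.13 on the log2 scale, SE 0.39) was 0.539. JCHAIN, the joining chain of secreted antibodies, was at 313 ± 147 and 1125 ± 939.9 (-1.40, SE 0.60, adjusted p = 0.655). The probe set annotated IGLL1, an immunoglobulin light chain symbol, was at 642 ± 608 and 5028 ± 5773 (-2.21, SE 1.09, adjusted p = 0.704).

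Among 20725 probe sets of other genes with a mean signal over 100, those most like the CD3 level over the 10 birds were of RPL24 (r = 0.86), LAMTOR3 (0.85), PITPNM3 (0.85), PAPOLB, LOC768434, BASP1, BDH1B, PHKB, BF2 (0.83), CASP2, CD200R1A (0.82), TEDC1, ATP6AP1, FAM78B and RRP1B (0.81). These are the highest of 20725 values of r, with 10 birds, and are a description without a test. BF2, an MHC class I gene whose product CD8 binds, read 17.3, 6.8, 138, 328 and 548 in fat line birds 1 to 5 and 352, 91.5, 1101, 12.9 and 426 in lean line birds 1 to 5 on this probe set. Lean line 3 was highest and fat line 2 lowest, and both lines held birds near the bottom and near the top (-1.21, SE 1.25).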
